A study of Saccharomyces cerevisiae with 210 samples.

Results

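Large-subunit ribosome assembly factors are the proteins that fold, cut, modify and export the precursor of the large ribosomal subunit in yeast. A fixed set of 49 such genes was examined in Saccharomyces cerevisiae exposed to CHP, an abbreviation in the labels that is read here as cumene hydroperoxide, an organic peroxide. A member was taken as the probe set that names the gene, and where several did, the probe set brightest on average across the arrays was used. All 49 members were found among the 5656 genes that a probe set names. MDN1 is listed on the array under its other name, REA1.

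RNA was measured on 210 Affymetrix Yeast Genome S98 arrays. The strain is BY4743, a diploid laboratory strain, as wild type and as 6 mutants named for the gene they lack, yap1, glr1, grx1, grx2, gpx1 and gpx2. Each of the 7 genotypes was grown as 6 fermentor cultures to mid-exponential phase, 3 of them given 0.19 mM CHP and 3 left untreated as Control, and each culture was sampled at 0, 3, 6, 12 and 20 min. Each of the 70 groups of genotype, treatment and time holds 3 cultures. The sources conflict on the 0 min sample: the series design places it just before the oxidant, and the descriptions of the samples place it after. It is read here as the start of the course, and whether CHP was already present in the CHP arm at 0 min cannot be told from the labels. GLR1 encodes glutathione reductase, GPX1 and GPX2 encode peroxidases, GRX1 and GRX2 encode glutaredoxins, and YAP1 encodes the transcription factor that switches on peroxide defence genes.

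Large-subunit assembly starts in the nucleolus on the long precursor RNA, runs through a series of particles that gain and lose factors in a fixed order, and ends in the cytoplasm when the last factors are released. DEAD-box helicases rearrange the RNA, GTPases and the AAA ATPase Mdn1 act as checkpoints, and placeholder proteins keep the seats of ribosomal proteins until these bind. Genes for these factors are known to be co-regulated with growth in yeast and to be turned down in many stresses.

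Before the results, 3 properties of the arrays bear on them. The deleted gene was lower on every array of its own mutant than on any wild-type array in 6 of 6 mutants. The cultures labelled gpx2 did not show the diploid pattern of mating genes. Of 14 haploid and mating markers, 10 were higher in gpx2 than in wild type at 0 min by limma with Benjamini-Hochberg adjustment, among them STE2, the pheromone receptor of a cells (4.75 on the log2 scale), and MFA2, which encodes a-factor (5.25). STE2, STE6, BAR1, MFA2, STE4 and STE18 were higher on all 30 gpx2 arrays than on any of the other 180 arrays. STE3, the receptor of alpha cells, was not (-0.01, adjusted p = 0.964). The mean of the 14 markers ran from 5.85 to 6.84 on gpx2 arrays and from 4.14 to 4.90 on the arrays of the other 6 genotypes. The gpx2 deletion and this a-cell pattern cannot be told apart in any comparison of gpx2 with wild type. The array of grx2 CHP replicate 2 at 20 min stood apart, with a correlation of 0.866 with the mean of the other 2 cultures of its group, against 0.947 or more for every other array. On it, 307 of 5656 genes and 4 of 49 members lay over 2 log2 units from the mean of the other 2 cultures. The main counts and named values of grx2 at 20 min are given with and without it.

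In wild type the members fell together between 6 and 12 min and stayed low at 20 min. The response is the log2 level with CHP minus the log2 level in Control at the same time, and it counts as lower or higher where the adjusted p of limma over all genes is below 0.05. At 3 min 0 of 49 members were lower and 0 higher, with a median response of 0.01 and 1 member at an unadjusted p below 0.05, against 0.106% of all genes lower and 0.672% higher. At 6 min 8 members were lower and 0 higher, against 8.68% of all genes lower and 4.05% higher. By 12 min 42 of 49 were lower and 0 higher, against 19.5% of all genes lower and 10.7% higher. By 20 min 43 of 49 were lower, against 21.9% of all genes lower and 16.7% higher. The median response of the members was -0.24, -1.14 and -1.33 at 6, 12 and 20 min, while the median of all genes was -0.12, -0.09 and -0.04. At 20 min 35 members were lower by at least 1 log2 unit, against 6.03% of all genes, and 0 were higher. These are bulk cultures, so a fall in every cell and a fall in part of the cells cannot be told apart.

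**Figure D1:**
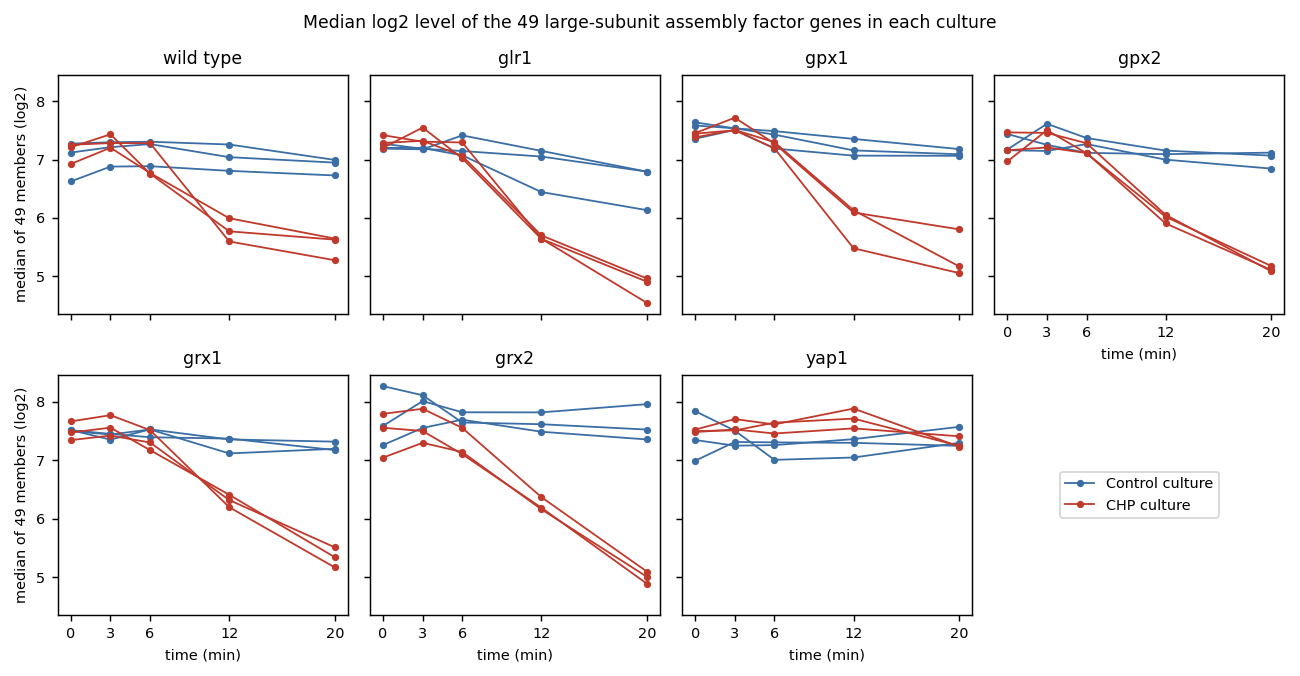
Median log2 level of the 49 members in each culture (y axis) against time in min (x axis), one panel per genotype; each line is 1 culture, blue for Control and red for CHP. In wild type, glr1, gpx1, gpx2, grx1 and grx2 the 3 CHP lines fall below the 3 Control lines by 12 min; in yap1 the lines stay between 6.99 and 7.89 throughout.

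The fall lay in the CHP arm. From 0 to 20 min 47 of 49 members fell within the wild-type CHP cultures, with a median of -1.63, against 20.2% of all genes lower in that arm. In the wild-type Control cultures 0 of 49 members were lower over the same time by limma (0% of all genes), with a member median of -0.28 and 8 members at an unadjusted p below 0.05. The lowest, median and highest of the 3 Control cultures at 20 min, taking the median over the members, were 6.73, 6.95 and 6.99, and those of the CHP cultures were 5.28, 5.63 and 5.65.

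Among the DEAD-box RNA helicases, which unwind or remodel precursor RNA, 7 of 8 were lower in wild type at 20 min, with a median of -1.34. DBP3 read 7.79, 7.92 and 7.44 in the Control cultures and 5.21, 5.77 and 5.92 in the CHP cultures at 20 min. Every CHP culture lay far below every Control culture, a response of -2.08 ± 0.22 (SE, n = 3 against 3, limma adjusted p = 1.4e-15). The responses of DRS1, MAK5, DBP7, DBP10, DBP9 and DBP6 ran from -1.53 for DRS1 to -0.56 for DBP6, and all 6 were called lower. SPB4 differed least: its Control cultures read 7.83, 8.33 and 8.32 and its CHP cultures 7.66, 7.94 and 8.02. These groups overlapped, and the response of -0.29 did not pass (adjusted p = 0.157). Under 3 alternatives SPB4 was called lower (adjusted p from 0.0399 to 0.0434).

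The RNA methyltransferases and RNA-binding factors had 6 of 7 members lower at 20 min, with a median of -1.14. PUF6, a Pumilio-family RNA-binding protein, read 5.06, 5.23 and 4.96 in Control and 3.41, 3.72 and 2.88 in CHP cultures. All 3 CHP values lay below all 3 Control values (-1.75 ± 0.24, adjusted p = 4.37e-10). NOP2, an rRNA methyltransferase, and NOP4, an RNA-recognition-motif protein, changed by -1.37 and -1.22. SPB1, also an rRNA methyltransferase, had the smallest response of this group at -0.74, with Control cultures at 5.31, 5.26 and 5.30 and CHP cultures at 4.48, 4.40 and 4.78. NOP12, which helps fold the precursor RNA, read 4.97, 4.71 and 4.42 in Control and 3.83, 3.66 and 3.70 in CHP cultures. The NOP12 groups did not overlap, yet the response of -0.97 ± 0.49 did not pass (adjusted p = 0.111). It passed with the grx2 array that stands apart left out of the fit (SE 0.34, adjusted p = 0.0143). That array holds a NOP12 value of 9.59, and all groups share 1 estimate of the spread.

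The Nop7 complex and the ITS2 factors act at the internal spacer that separates the mature RNAs, and all 6 were lower at 20 min, with a median of -1.40. ERB1, a subunit of the Nop7 complex, read 8.96, 9.22 and 9.02 in Control and 6.95, 7.45 and 7.09 in CHP cultures. Its partner in the same complex, YTM1, read 8.44, 8.89 and 8.62 in Control and 6.38, 6.91 and 7.05 in CHP cultures. The groups of both genes were far apart, with responses of -1.90 ± 0.22 for ERB1 and -1.87 ± 0.21 for YTM1 (adjusted p = 4.72e-13 and 8.65e-14). The remaining subunit, NOP7, had the smallest response of this group at -1.19 ± 0.20 (adjusted p = 1.2e-07). CIC1, RLP7 and NOP15, which bind at or near the spacer, changed by -1.46, -1.34 and -1.33.

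Brix-domain proteins and their partners, which bind the precursor particle in pairs, were lower in 7 of 8 cases, with a median of -1.11. BRX1 read 8.17, 8.51 and 8.01 in Control and 6.03, 6.29 and 6.42 in CHP cultures. Every CHP value lay far below every Control value (-1.99 ± 0.19, adjusted p = 5.24e-18). EBP2, the partner of BRX1, changed by -1.51. RPF2 and RRS1, which together bring in the particle of the smallest ribosomal RNA, changed by -1.29 and -0.81. MAK16 read 5.58, 5.33 and 4.47 in Control and 4.63, 4.72 and 4.55 in CHP cultures. Its Control replicate 3 lay below all CHP cultures, and the response of -0.49 did not pass (adjusted p = 0.11, or 0.0474 without the grx2 array that stands apart).

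Of the Noc proteins, which form pairs on early particles, 2 of 3 were lower, with a median of -1.24. MAK21, also called NOC1, read 5.44, 5.32 and 5.13 in Control and 3.17, 3.71 and 3.88 in CHP cultures, with no overlap (-1.71 ± 0.23, adjusted p = 1.33e-10). NOC2, which pairs with MAK21 and with NOC3, changed by -1.24. NOC3 read 6.11, 5.90 and 5.93 in Control and 5.28, 5.14 and 5.26 in CHP cultures. The NOC3 groups did not overlap either, but the response of -0.75 ± 0.39 did not pass (adjusted p = 0.116). Without the grx2 array, on which NOC3 reads 11.04, the same response had an SE of 0.17 and an adjusted p of 0.000128.

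The GTPases and the Rix1-Mdn1 machinery, which test and restructure the nuclear particle, had 8 of 9 members lower and the lowest median of the 7 role groups, -1.65. RIX1, which with IPI1 and IPI3 recruits Mdn1 to the particle, read 7.12, 7.59 and 7.18 in Control and 5.42, 5.39 and 5.21 in CHP cultures. All CHP values lay below all Control values (-1.96 ± 0.20, adjusted p = 1.03e-15). The GTPases NOG1, NOG2 and NUG1 changed by -1.83, -1.66 and -1.40. MDN1, the very large AAA ATPase that pulls factors off the particle, had the smallest response of this group. It read 7.40, 7.15 and 7.17 in Control and 7.20, 7.03 and 6.96 in CHP cultures, overlapping groups with a response of -0.17 ± 0.21 (adjusted p = 0.567). With each culture's own 0 min array subtracted, MDN1 in wild type was called lower (-0.52, adjusted p = 0.0388). In the main fit MDN1 was called lower at 20 min only in grx2 (-0.45, adjusted p = 0.0484). That call was lost without the array that stands apart (-0.22, adjusted p = 0.416). MDN1 was not called at 12 min in any genotype.

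Late, shuttling and placeholder factors had 7 of 8 members lower, with a median of -1.24. ARX1, an export factor that leaves the particle in the cytoplasm, had the largest fall of all members. It read 7.55, 7.62 and 7.63 in Control and 4.89, 5.89 and 5.64 in CHP cultures. The groups lay far apart, and the response of -2.13 ± 0.21 equals a level 4.36-fold lower (adjusted p = 1.64e-16). REI1, the cytoplasmic factor that recycles ARX1, and LSG1, a cytoplasmic GTPase, changed by -1.0 each. SYO1, which carries ribosomal proteins into the nucleus, changed by -1.79. TIF6, which keeps the subunits from joining, read 9.59, 9.94 and 9.02 in Control and 9.06, 9.20 and 9.19 in CHP cultures. Its groups overlapped, and the call at -0.37 (adjusted p = 0.047) was lost under 9 alternatives. MAK11, a WD-repeat protein, read 6.69, 6.19 and 6.13 in Control and 6.17, 6.07 and 6.11 in CHP cultures, again with overlap (-0.22, adjusted p = 0.402).

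**Figure D2:**
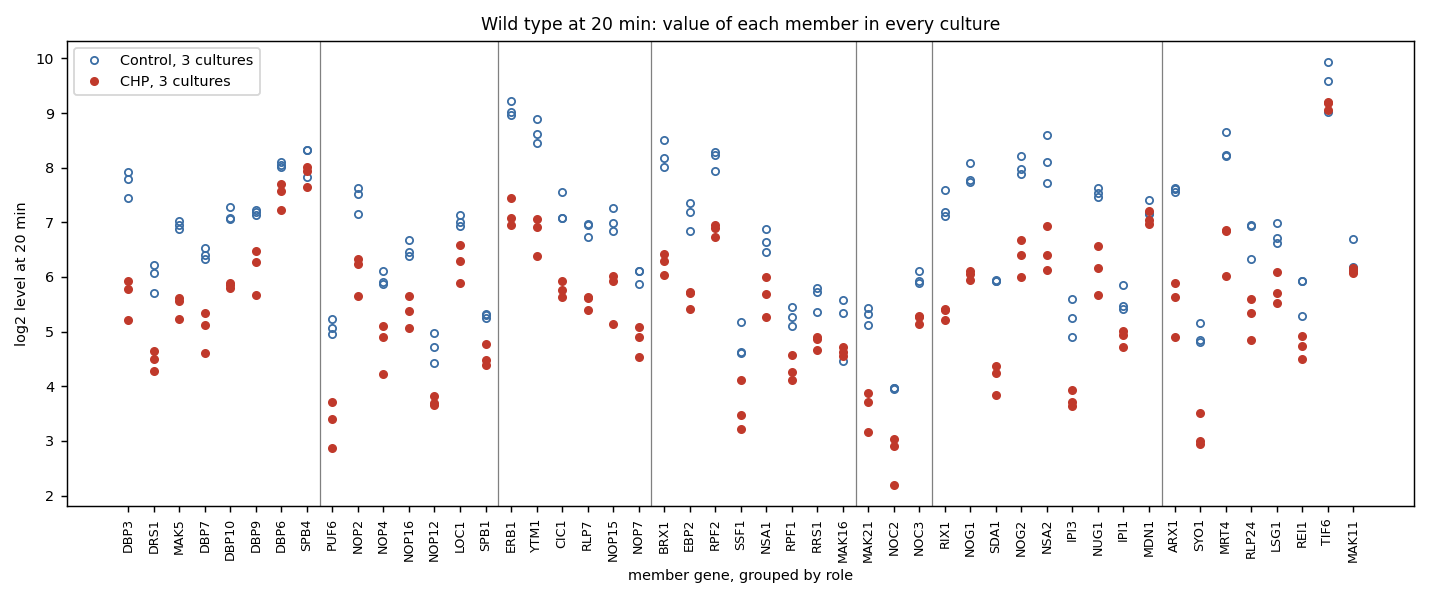
Log2 level (y axis) of each of the 49 members (x axis, grouped by role and ordered by response within a group) in wild type at 20 min; each point is 1 culture, open blue for Control and filled red for CHP. The 3 CHP points lie below the 3 Control points for 44 members; MAK11, MAK16, SPB4, TIF6 and MDN1 are the exceptions.

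All 3 CHP cultures lay below all 3 Control cultures for 44 of 49 members in wild type at 20 min, against 25.9% of all genes. At 12 min this held for 46 of 49, against 26% of all genes.

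At 6 min few members were called, and members were not tested against each other for timing. DBP7, the helicase with the largest response at 6 min, read 7.09, 6.56 and 6.88 in Control and 5.88, 6.26 and 5.93 in CHP cultures, without overlap (-0.82 ± 0.22, limma adjusted p = 0.00436). IPI3 changed by -0.77, SSF1 by -0.75, CIC1 by -0.71 and ARX1 by -0.70 at that time. NOG2, MRT4 and IPI1 completed the 8 called members. The count of 8 rests on single cultures: it was 2 with wild-type Control replicate 1 left out, 4 with Control replicate 2 out, 5 with CHP replicate 2 out and 3 with CHP replicate 3 out. All 8 were also called at 12 min, and 41 of the 42 called at 12 min were called at 20 min.

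SSF1, a Brix-domain protein, read lower with CHP at 12 than at 20 min, with CHP cultures at 2.92, 3.39 and 3.32 against 3.22, 3.47 and 4.11 at 20 min. Its response was -1.94 at 12 min and -1.21 at 20 min. REI1 went from -1.76 to -1.0 and DBP7 from -2.06 to -1.40 over the same interval. SDA1, a factor of the nuclear particle, did the reverse, with CHP cultures at 5.04, 5.28 and 5.30 at 12 min and 3.83, 4.25 and 4.37 at 20 min. BRX1 went from -1.02 to -1.99. In wild type the response was lower at 20 than at 12 min for 27 members and higher for 22. The change of the response between these times passed for 1 member, BRX1 (-0.97), against 1.08% of all genes, so the order of single members between 12 and 20 min was within the error for most of them. That call was lost when any 1 of 5 wild-type cultures was left out.

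The responses of the other genotypes are set beside wild type in the heat map of responses. At 12 min the members called lower in glr1, gpx1, gpx2, grx1 and grx2 numbered 44, 44, 46, 40 and 47, against 21.1%, 17%, 17.9%, 18.7% and 23.9% of all genes. At 20 min they numbered 48, 47, 48, 48 and 46, in the same order, against 26.7%, 26.3%, 24.1%, 26% and 39.3% of all genes. Their median responses at 20 min were -1.61, -1.84, -1.86, -1.89 and -2.65. Without the array that stands apart, grx2 had 48 members lower, against 30.6% of all genes, and a median of -2.49. At 20 min 43 members were lower in each of these 5 mutants and in wild type, against 15.5% of all genes, and the number was also 43 with the gpx2 cultures left aside. At 6 min the counts were 6, 3, 1, 1 and 12, against 12.7%, 2.37%, 1.91%, 2.19% and 4.7% of all genes. NOG2, the GTPase of the late nuclear particle, was among them in all 5 mutants, as in wild type. The 6 min counts moved with single cultures: 2 in glr1 without CHP replicate 3, 0 in gpx2 without CHP replicate 2, and in grx2 23, 4 and 6 without CHP replicates 1, 2 and 3.

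**Figure D3:**
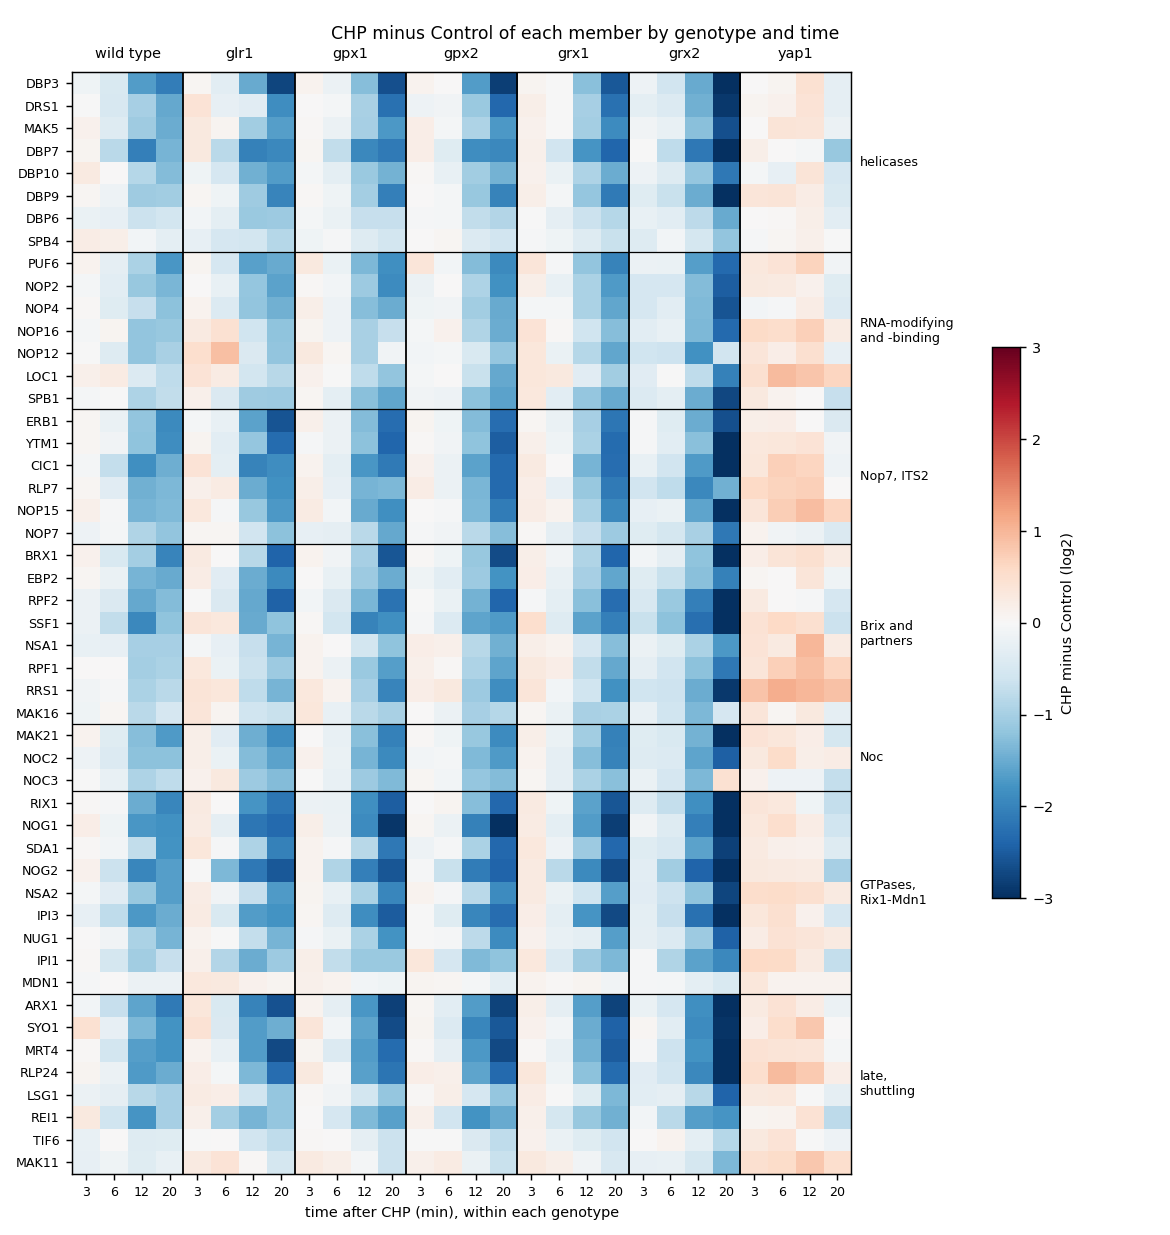
Response (CHP minus Control, log2, colour scale from -3 to 3, with values beyond the ends drawn in the end colours) of the 49 members (rows, grouped by role) at 3, 6, 12 and 20 min in each of 7 genotypes (columns). Blue fills most of the 12 and 20 min columns of every genotype but yap1, while MDN1 was 0.14 in glr1 at 12 min. NOP12, NOC3 and MAK16 in grx2 at 20 min (-0.58, 0.45 and -0.51) include the array of CHP replicate 2 that stands apart.

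In yap1 the members did not fall at 12 min. No member was lower in yap1 at 3, 6 or 12 min by limma, against 0.124% of all genes at 3 min, 7.58% at 6 min and 16% at 12 min, while 8 were higher at 6 min and 12 at 12 min, against 6.58% and 13.3% of all genes higher. At 12 min 19 members had an unadjusted p below 0.05. RRS1 read 6.33, 6.44 and 6.02 in Control and 7.29, 7.31 and 7.17 in CHP cultures at 12 min. Its CHP cultures were all above its Control cultures (1.00 ± 0.23, adjusted p = 0.000286). NSA1, a partner of the Brix-domain proteins, and NOP15, an RNA-binding ITS2 factor, were also higher, by 0.99 and 0.92. At 20 min 12 members were lower and 5 higher in yap1, against 26.3% and 18.2% of all genes. DBP7 was the lowest there, with Control cultures at 7.25, 7.15 and 7.03 and CHP cultures at 6.37, 5.79 and 5.87 (-1.13 ± 0.22, adjusted p = 3.9e-06). NOG2 followed at -1.0 and REI1 at -0.79. The count of 12 fell to 7 when Control replicate 2 or CHP replicate 2 was left out and to 6 when CHP replicate 3 was. The count of 5 fell to 2 when Control replicate 1 was left out and to 3 when CHP replicate 2 was. The count of 8 at 6 min fell to 3 when Control replicate 3 was left out and to 4 when CHP replicate 2 or CHP replicate 3 was.

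The 2 arms of yap1 already differed at 0 min, a sample that the sources place either just before or after the oxidant. There 357 of 5656 genes were called between the arms, and the members' median difference was 0.22, with 0 called and 15 at an unadjusted p below 0.05. With each culture's own 0 min array subtracted, the members higher in yap1 numbered 2 at 6 min, 4 at 12 min and 2 at 20 min. The matching shares of all genes are not given here. Within the yap1 CHP arm alone, MAK11 and NOP16 were higher at 12 min than at 0 min and 0 members were lower, against 11.1% and 13.8% of all genes. The count of 2 was 0 without CHP replicate 1 and 1 without CHP replicate 2 or CHP replicate 3. By 20 min 21 members were lower than at 0 min in that arm, with a median of -0.40, against 24.9% of all genes. That count was 13 with CHP replicate 2 left out and 12 with CHP replicate 3 left out. In wild type the corresponding median was -1.63, as given above.

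The difference between genotypes was tested as the yap1 response minus the wild-type response. It was higher in yap1 for 11 members at 6 min, 43 at 12 min and 36 at 20 min, against 4.49%, 13.1% and 11.5% of all genes. The median difference was 1.49 at 12 min and 1.23 at 20 min. The largest at 20 min was that of BRX1 (2.23 ± 0.27, limma adjusted p = 5.68e-12), whose CHP cultures read 8.55, 8.63 and 8.58 in yap1 and 6.03, 6.29 and 6.42 in wild type. NOP15 differed by 1.99, ARX1 by 1.96, NSA2 by 1.92 and SYO1 by 1.81. NOP15 read 7.30, 7.74 and 7.44 in yap1 Control and 8.29, 8.10 and 8.05 in yap1 CHP cultures at 20 min, so all CHP cultures lay above all Control cultures. ARX1 read 7.81, 7.98 and 7.21 in yap1 Control and 7.62, 7.53 and 7.35 in yap1 CHP cultures, which overlapped (-0.17, adjusted p = 0.551). By role, the difference at 20 min was called higher for 6 of 6 Nop7 and ITS2 factors, 6 of 8 Brix-domain proteins and partners, 7 of 9 GTPases and Rix1-Mdn1 factors, 6 of 8 late factors, 5 of 7 RNA-modifying and RNA-binding factors, 2 of 3 Noc proteins and 4 of 8 helicases. The members not called at 12 min were NOP12, NOC3, SPB4, TIF6, MDN1 and SDA1. For NOP12 and NOC3 the SE of the difference was large, 0.70 and 0.55. Their estimate of the spread includes the grx2 array that stands apart, on which they read 9.59 and 11.04. Whether they would be called without that array is not given here, and the role counts above carry the same limit. With each culture's own 0 min array subtracted the counts were 1 at 6 min, 32 at 12 min and 18 at 20 min, and the median at 20 min was 0.81. Shares of all genes under that setting are not given here. The count of 11 at 6 min was 7 without wild-type Control replicate 1, Control replicate 2 or CHP replicate 3.

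**Figure D4:**
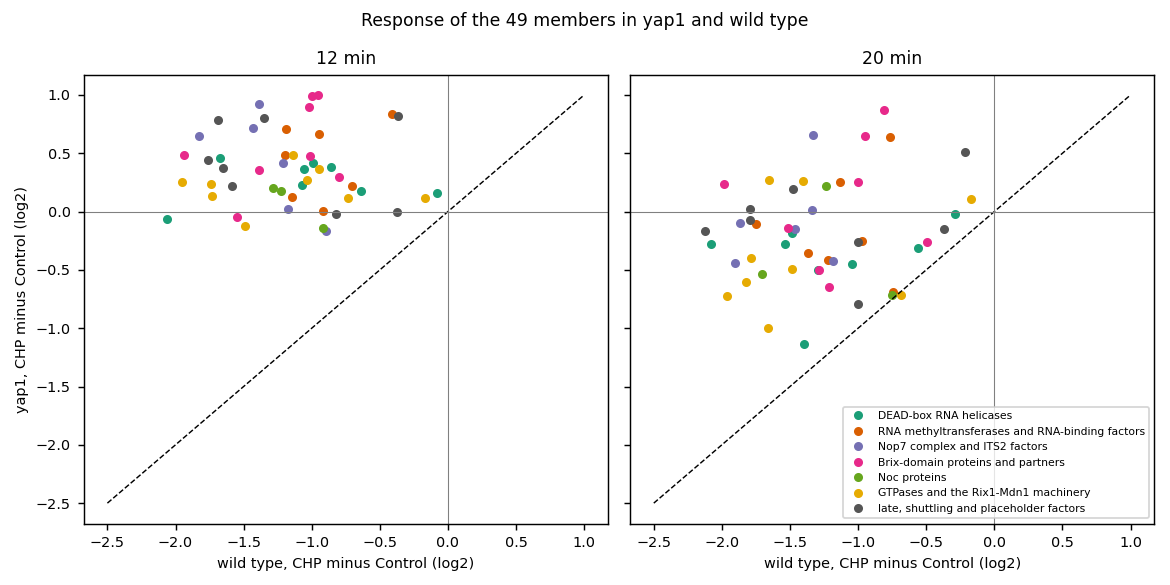
Response (CHP minus Control, log2) of each of the 49 members in yap1 (y axis) against wild type (x axis) at 12 and 20 min; each point is 1 member, coloured by role group, and the dashed line marks equal responses. Nearly all points lie above the line, with medians of 0.36 in yap1 and -1.14 in wild type at 12 min, and -0.25 and -1.33 at 20 min.

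The fall, read as CHP minus Control, was deepest in grx2, but the level with CHP was not lowest there. At 20 min the median over the members ran from 4.89 to 5.09 in grx2 CHP cultures and from 4.54 to 4.96 in glr1 CHP cultures. In Control cultures it ran from 7.36 to 7.96 in grx2 and from 6.13 to 6.79 in glr1. The ranking of the responses therefore depends on the Control arms as well as on the CHP arms. Of the 7 genotypes, grx2 had the lowest response at 20 min for 45 of 49 members, or 47 without the array that stands apart, and at 12 min for 35. The same share over all genes is not given here. NOP15 read 8.66, 7.97 and 7.48 in Control and 4.61, 4.36 and 4.91 in CHP cultures at 20 min, with no overlap (-3.41 ± 0.21, adjusted p = 1.3e-32, or -3.28 without that array). The response of grx2 at 20 min was lower than that of wild type for 39 members, against 18.2% of all genes, with a median difference of -1.19. RRS1 differed by -2.08, NOP15 by -2.08, DBP9 by -2.07, SPB1 by -1.99 and SSF1 by -1.97. RRS1 read 7.14, 7.42 and 6.72 in grx2 Control and 4.69, 3.76 and 4.17 in grx2 CHP cultures, a response of -2.89 beside -0.81 in wild type. DBP9 read 8.42, 7.86 and 7.65 in grx2 Control and 5.34, 4.22 and 5.01 in grx2 CHP cultures. The groups of both genes lay far apart. NOG1 had the lowest response of any member in grx2, with Control cultures at 8.68, 8.34 and 8.81 and CHP cultures between 4.41 and 5.09 (-3.78, a level 13.7-fold lower, or -3.57 and 11.9-fold without that array). By role, the difference from wild type was called lower for 8 of 8 helicases, 8 of 9 GTPases and Rix1-Mdn1 factors, 6 of 8 Brix-domain proteins and partners, 6 of 8 late factors, 5 of 7 RNA-modifying and RNA-binding factors, 4 of 6 Nop7 and ITS2 factors and 2 of 3 Noc proteins. Without that array these counts were, in the same order, 7, 5, 6, 6, 4, 5 and 3.

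SPB4, TIF6 and MAK11, the smaller responses of wild type at 20 min, were called lower in all of glr1, gpx1, gpx2, grx1 and grx2 at that time. SPB4 ran from -1.19 in grx2 to -0.55 in gpx1, TIF6 from -0.85 in grx2 to -0.57 in grx1, and MAK11 from -1.35 in grx2 to -0.47 in grx1. In yap1 SPB4 (-0.02) and TIF6 (-0.15) did not pass and MAK11 was higher (0.51). None of the 3 was called in the test of glr1, gpx1, gpx2 or grx1 against wild type at 20 min.

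The array that stands apart decides a few of these values. On it NOP12 read 9.59 against 3.13 and 3.01 in the other CHP cultures, NOC3 11.04 against 4.65 and 4.86, RLP7 9.47 against 5.01 and 4.97, and MAK16 6.92 against 4.45 and 4.36. These 4 members were high on it, and 0 members were over 2 log2 units low. Without it the grx2 responses at 20 min were -2.76 for NOP12, -1.64 for NOC3, -2.93 for RLP7 and -1.35 for MAK16, in place of -0.58, 0.45, -1.44 and -0.51. Without it 36 members had a lower response in grx2 than in wild type at 20 min, against 8.22% of all genes, with a median difference of -1.10. RRS1, NOP15, DBP9, SPB1 and SSF1 were still called, with differences from -1.94 for NOP15 to -1.75 for DBP9. With each culture's own 0 min array subtracted the count was 24, for which the share of all genes is not given here. A single high NOP12 value also occurred in gpx1 at 20 min, where CHP replicate 2 read 7.41 against 3.90 and 3.42, and NOP12 was not called there (-0.11, adjusted p = 0.881).

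Between 12 and 20 min, a comparison added after the data had been seen, the grx2 response fell further for 41 members, against 17.9% of all genes, and for 27 without that array. The response fell between these times for 23, 11, 11, 10 and 6 members in grx1, glr1, gpx1, gpx2 and yap1. The shares of all genes were 3.57%, 4.99%, 3.73%, 2.55% and 2.37%. BRX1 was the member with the largest further fall in glr1, gpx1, gpx2 and grx1, at -1.56, -1.58, -1.56 and -1.47. In yap1 the largest fall was that of NOG2, at -1.25. The change between these times was lower in grx2 than in wild type for 16 members, against 3.27% of all genes. That count was 6 without that array, against 0.69% of all genes, 9 under quantile normalization and 0 with only the genotypes compared in the fit. The change was lower in yap1 than in wild type for 5 members, REI1, SSF1, DBP7, NOG2 and IPI1, against 0.654% of all genes. In wild type the responses of these 5 rose between these times, by 0.76, 0.73, 0.66, 0.29 and 0.35, none of them called. In yap1 they changed by -1.23, -1.13, -1.07, -1.25 and -0.99, from 0.44, 0.48, -0.07, 0.25 and 0.27 at 12 min. For glr1, gpx1, gpx2 and grx1 the count was 0 by limma, against 0% of all genes in each, with 6, 8, 7 and 16 members at an unadjusted p below 0.05. The grx2 count of 16 was 10 without grx2 Control replicate 3, 9 without wild-type Control replicate 2, 7 without wild-type CHP replicate 3 and 5 without grx2 CHP replicate 2. The yap1 count of 5 was 3 without wild-type Control replicate 3, wild-type CHP replicate 2 or 3, or yap1 CHP replicate 1 or 2. The grx1 count of 23 was between 7 and 12 without any 1 of Control replicates 1, 2 and 3 and CHP replicates 2 and 3.

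**Figure D5:**
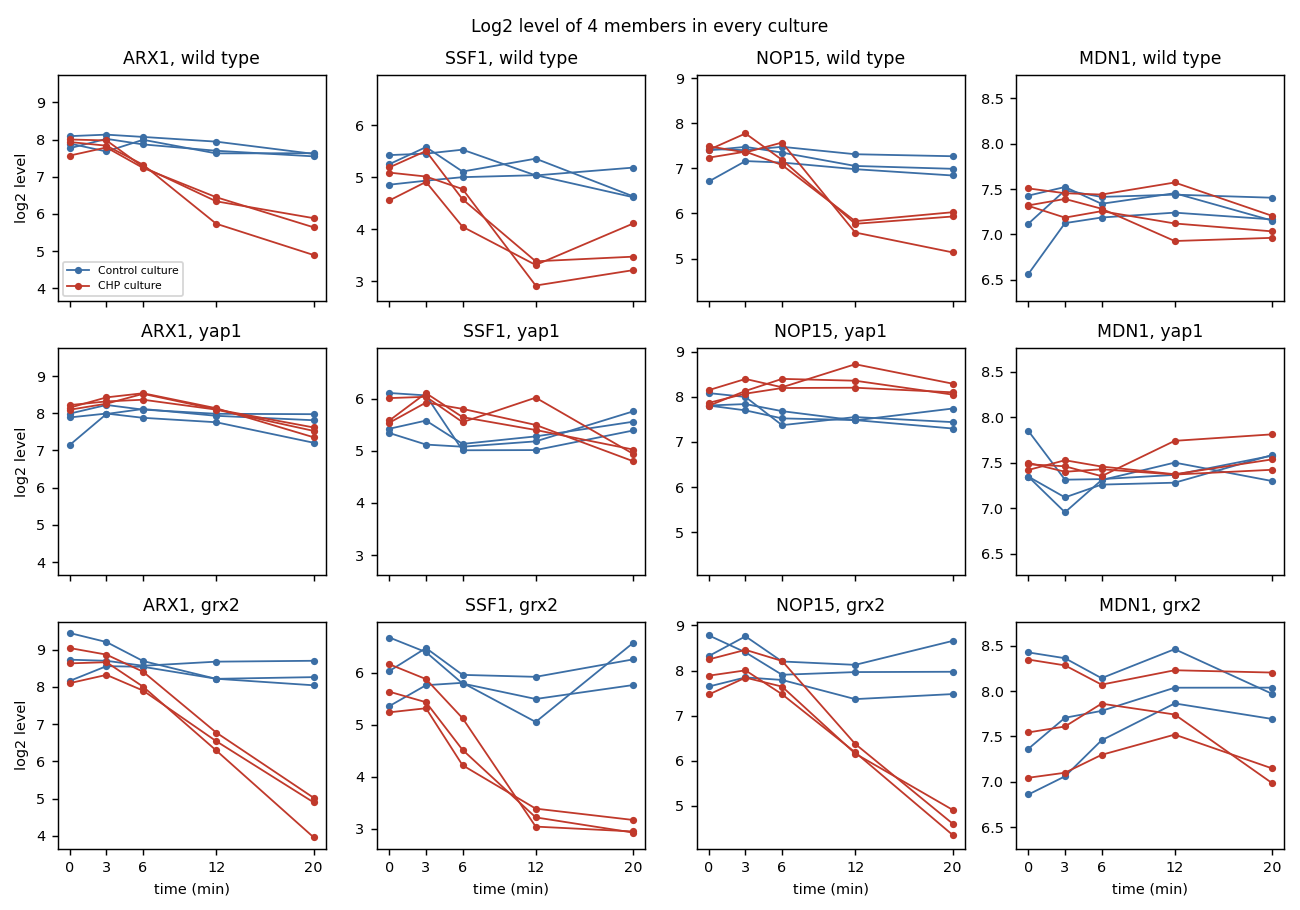
Log2 level (y axis) of ARX1, SSF1, NOP15 and MDN1 (columns) against time in min (x axis) in wild type, yap1 and grx2 (rows); each line is 1 culture, blue for Control and red for CHP, and each gene has 1 y range. At 20 min ARX1 CHP cultures read 4.89 to 5.89 in wild type, 7.35 to 7.62 in yap1 and 3.95 to 5.02 in grx2, while MDN1 CHP cultures in wild type read 6.96 to 7.20.

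In glr1, gpx1, gpx2 and grx1 the response at 20 min was below that of wild type for 44, 45, 49 and 47 of 49 members, with median differences of -0.36, -0.51, -0.51 and -0.46, and few of these differences passed the test. The 4 comparisons share 1 set of 6 wild-type cultures, so these counts are not independent of each other. The share of all genes below wild type is not given here, so the direction cannot be called particular to the members. With each culture's own 0 min array subtracted the members called at 20 min were 0 in glr1, gpx2 and grx1. With only the genotypes compared in the fit they were 0 in glr1, 5 in gpx1, 5 in gpx2 and 11 in grx1. Shares of all genes for these alternative counts are not given here. In glr1 at 20 min 4 members had a lower response, against 2.03% of all genes, namely RPF2 (-1.13), DBP9 (-0.94), MRT4 (-0.91) and NOG2 (-0.89). RPF2 read 8.63, 8.61 and 7.44 in glr1 Control and 5.95, 6.07 and 5.39 in glr1 CHP cultures, and Control replicate 3 was the low one. The members' median in the glr1 Control cultures at 20 min was 6.79, 6.79 and 6.13, the last being Control replicate 3. From 0 to 20 min 26 of 49 were lower in the glr1 Control arm, against 3.02% of all genes, and 0 were lower without Control replicate 3. Without it 14 members had a lower response in glr1 than in wild type. The count of 4 rose to 7 with glr1 CHP replicate 1 left out. It was 2 without any of glr1 CHP replicate 2, wild-type Control replicate 1 or wild-type CHP replicate 2, 1 without wild-type CHP replicate 3, and 0 without glr1 Control replicate 1, Control replicate 2 or CHP replicate 3.

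In grx1 3 members had a lower response than in wild type at 20 min, against 0.336% of all genes, namely IPI3 (-1.21), DBP9 (-1.08) and NOG2 (-1.01). IPI3 read 6.00, 5.93 and 6.25 in grx1 Control and 3.45, 3.48 and 3.15 in grx1 CHP cultures. The count was 0 without grx1 Control replicate 3, grx1 CHP replicate 3, wild-type Control replicate 3 or wild-type CHP replicate 3, 1 without wild-type CHP replicate 2 and 6 without wild-type CHP replicate 1. In gpx2 the only such member was NOG1 (-1.23), a GTPase of the nucleolar and nuclear particles, against 0.265% of all genes. NOG1 read 8.09, 8.22 and 8.16 in gpx2 Control and 5.47, 4.89 and 4.95 in gpx2 CHP cultures, far apart. The gpx2 count was 0 without gpx2 Control replicate 2 or 3, gpx2 CHP replicate 2 or 3, wild-type Control replicate 1 or 3, or wild-type CHP replicate 2 or 3. It was 2 without wild-type Control replicate 2 and 5 without wild-type CHP replicate 1. In gpx1 the count was 0 by limma, against 0.159% of all genes, with 18 members at an unadjusted p below 0.05. It was 6 without gpx1 CHP replicate 1 and 2 without wild-type CHP replicate 1.

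The members also differed in level between genotypes at 0 min, over the 3 Control and 3 CHP cultures of each genotype, the latter with the conflict on the sampling moment given above. At 0 min they were higher than in wild type for 38 members in grx2, 18 in gpx1, 17 in grx1, 11 in yap1, 3 in gpx2 and 0 in glr1, against 16.8%, 16.4%, 12.2%, 9.14%, 6.31% and 0.0177% of all genes. The median difference was 0.50 in grx2, 0.33 in gpx1, 0.26 in grx1, 0.27 in yap1, 0.09 in gpx2 and 0.14 in glr1. SYO1 was the highest in grx2 (1.05) and in gpx1 (0.80), and NOP15 in yap1 (0.64). SPB4 was the lowest member in gpx1, gpx2, grx1, grx2 and yap1, and it was the only member called lower, in gpx1 (-0.29), where 12.6% of all genes were lower. The distance between the 10th and 90th percentiles of an array ran from 5.59 to 6.25 in wild type and from 5.95 to 6.74 in grx2, 6.19 to 6.55 in gpx1 and 6.19 to 6.50 in grx1. The part of this difference between arrays in the 0 min result was not tested. Without wild-type Control replicate 3 the counts were 22 in grx2, 10 in gpx1, 4 in grx1, 2 in yap1 and 0 in gpx2. The grx2 count was also 21 without grx2 Control replicate 2 or grx2 CHP replicate 1. The grx1 count was 11 without grx1 CHP replicate 3 and 9 without wild-type CHP replicate 3, and the yap1 count was 7 without yap1 CHP replicate 1 or wild-type CHP replicate 3. The gpx2 count was 0 without gpx2 Control replicate 2, gpx2 CHP replicate 3 or wild-type CHP replicate 3, and 5 without wild-type CHP replicate 1.

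Several members have a relative among the ribosomal proteins or the other factors, which gives a comparison within pairs at 20 min in wild type. RLP24, the placeholder for the ribosomal protein of the RPL24 genes, was lower (-1.48), while RPL24A (-0.12, adjusted p = 0.586) and RPL24B (-0.13, adjusted p = 0.254) did not pass. MRT4, the placeholder for the stalk protein P0, was lower (-1.79), and the P0 gene RPP0 did not pass (0.16, adjusted p = 0.0591). REI1 was lower (-1.0), and its paralog REH1 was higher (0.69 ± 0.18, limma adjusted p = 0.00106). SSF1 was lower (-1.21), and its near-identical paralog SSF2 did not pass (-0.39, adjusted p = 0.12). RLP7, which resembles ribosomal protein L7, was lower (-1.34). Of the RPL7 genes, RPL7B was lower (-1.66, adjusted p = 8.85e-11) and RPL7A did not pass (-0.32, adjusted p = 0.113). The differences between the genes of a pair were not tested. Probe sets of SSF2, RPL7A and RPL7B are of the kinds that can also bind RNA of their near copies.

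Other genes of ribosome assembly were counted in wild type at 20 min against the same 21.9% of all genes lower. Of 32 other large-subunit assembly factors 26 were lower and 1 was higher, with a median of -0.87, and NIP7 (-1.82) and RRB1 (-1.64) fell most. Of 43 genes of the small-subunit processome, which builds the other subunit, 41 were lower, with a median of -1.32, led by ECM16 (-1.95) and UTP14 (-1.93). Large-subunit ribosomal protein genes were lower in 17 of 42 cases and higher in 1, with a median of -0.32, and RPL7B and RPL22B (-1.37) fell most. The 42 are those with a probe set that names 1 gene, and any on probe sets naming several genes were not counted. Of 12 regulators of ribosome biogenesis 6 were lower and 1 was higher, with TOD6 (-1.17) and IFH1 (-0.99) the lowest. In yap1 minus wild type at 20 min 27 of 43 processome genes and 12 of the 32 other large-subunit factors were higher. In grx2 minus wild type 35 of 43 and 17 of 32 were lower, or 29 and 17 without the array that stands apart. The 21.9% does not apply to these differences from wild type, whose shares of all genes are given with the members above. Haploid and mating markers were neither lower nor higher in wild type at 20 min (0 of 14).

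Of the 49 members, 2 lie next to another assembly factor gene of the lists used here, by the RefSeq annotation of assembly R64. RIX1 neighbours the small-subunit gene UTP9, and both were lower in wild type at 20 min (-1.96 and -1.61). NSA2 neighbours the small-subunit gene LCP5, with responses of -1.65 and -0.93.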

How the data were processed

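The deposited values are log2 expression per probe set of the Yeast Genome S98 array, made by the authors with RMA, per the submitters' processing notes. RMA corrects the background, normalizes between arrays and summarises probes, with version and settings not given in the sources used. Of 9335 probe sets, 6504 name 1 gene, 328 several and 2443 none; genes with several probe sets took the one with the highest mean, which left 5656 genes. Groups came from the labels. A model with 70 group means was fitted to all 210 arrays with limma 3.58.1 in R 4.3.3 (residual df 140, prior df 6.77). P-values were adjusted by Benjamini-Hochberg over all genes, with 0.05 as the threshold. This fit treated the repeated samples of a culture as independent, although the estimated within-culture correlation was 0.264. With culture as a random block, 56 counts stayed within 1.5 times the reported count and 2 did not. Arrays give no read depth, so 3 cultures a group limit the precision, and low values on the log2 scale are compressed by background. The labels give the 3 as separate cultures. The fit was tested on simulated data with independent noise on every array. That test does not cover repeated samples of a culture or an array that stands apart. Levels of different probe sets were not compared.

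The members and lists were chosen with earlier results of these data known. Members named were the 6 largest falls and 4 highest responses in wild type at 20 min, the 5 largest at 6 min, the 5 largest differences of each mutant from wild type at 20 min, every member not passing in wild type at 20 min, the extremes of each role group, the listed paralogs and the 2 largest falls of each other list. Other members named were chosen after their values were seen. Alternatives changed the scaling, the arrays fitted, the block, the filter on dim genes (under the 20th percentile), the probe set and the starting level, and left out cultures.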

Additional observations from a re-analysis of the deposited data

Results flagged for a closer look

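The responses below differed between a mutant and wild type by the limma test of the difference itself, and all mutants were set against the same wild-type cultures. The share of all genes beside each main count is given with that count above and should be read with it. In yap1 the response was higher for 11 members at 6 min, 43 at 12 min and 36 at 20 min. The largest differences at 20 min were those of BRX1 (2.23), NOP15 (1.99), ARX1 (1.96), NSA2 (1.92) and SYO1 (1.81). In grx2 the response at 20 min was lower for 39 members, with the largest differences for RRS1 (-2.08), NOP15 (-2.08), DBP9 (-2.07), SPB1 (-1.99) and SSF1 (-1.97), and the count was 36 without the array of grx2 CHP replicate 2.

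In glr1 it was lower for 4 members, RPF2 (-1.13), DBP9 (-0.94), MRT4 (-0.91) and NOG2 (-0.89), and the count was 0 with each culture's own 0 min array subtracted and 0 with only the genotypes compared in the fit. In grx1 it was lower for 3 members, IPI3 (-1.21), DBP9 (-1.08) and NOG2 (-1.01). In gpx2 it was lower for 1 member, NOG1 (-1.23), and those cultures carry the a-cell pattern of mating genes. The grx1 and gpx2 counts were both 0 with the own 0 min array subtracted. The change of the response from 12 to 20 min was lower than in wild type for 16 members in grx2 and 5 in yap1. The grx2 count was 6 without that array, 9 under quantile normalization and 0 with only the genotypes compared in the fit.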

How the results depend on the processing

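Of 976 recomputed counts for 58 results, 834 lay within 1.5 times the reported count and 142 did not. Of 804 values for 44 named results, 701 kept their direction and call, 93 lost the call, 10 gained one and 0 changed sign. The counts of members lower in wild type stayed within 40 to 44 at 12 min and 40 to 44 at 20 min with any 1 culture left out, and those higher in yap1 than in wild type within 41 to 45 at 12 min and 29 to 35 at 20 min. The cause of the changes below was not tested. Shares of all genes are not given for the recomputed counts below or for most of those above. A change in such a count therefore cannot be called particular to the members.

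With each culture's own 0 min array subtracted, members lower at 6 min numbered 1 in wild type, 3 in glr1, 2 in grx2, 1 in gpx1 and 0 in gpx2, and members higher in yap1 numbered 2 at 6 min, 4 at 12 min and 2 at 20 min. Under it the differences from wild type at 20 min gave 24 members in grx2, 0 in glr1, gpx2 and grx1, and 18 in yap1, and 1 in yap1 at 6 min. With only the genotypes compared in the fit, members lower at 6 min numbered 7 in grx1, 4 in grx2, 6 in gpx1 and 3 in gpx2, and 14 were higher in yap1. The differences at 20 min then gave 0 in glr1, 5 in gpx1, 5 in gpx2 and 11 in grx1. The falls from 12 to 20 min gave 2 in wild type, 37 in grx1 and 17 in grx2. For 0 members that change was lower in grx2 than in wild type.

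Quantile normalization gave 1 member higher in yap1 at 3 min and 13 at 6 min, and differences at 20 min of 0 in gpx2 and 1 in grx1. It also gave 6 members higher in gpx2 at 0 min, and 9 whose change from 12 to 20 min was lower in grx2 than in wild type. Arrays centred on their medians gave 4 members lower in wild type at 6 min, 1 higher in yap1 at 3 min, 3 differences in gpx2 and 6 higher in gpx2 at 0 min. The mean of all probe sets gave 1 difference in gpx1. Culture as a random block gave 2 falls from 12 to 20 min in wild type and 4 members higher at 12 than at 0 min in the yap1 CHP arm. Leaving out the grx2 array that stands apart was chosen as an alternative for the whole fit after seeing the data. Without it 1 member was higher in yap1 at 3 min and 27 fell from 12 to 20 min in grx2. For 6 members that change was lower in grx2 than in wild type. Leaving out all gpx2 arrays, also chosen after seeing the data, moved 0 of 51 counts by over 1.5 times. TIF6 in wild type then lost its call (adjusted p = 0.0575). So did the DBP9 differences of glr1 and of grx1 from wild type at 20 min. Leaving out dim genes moved 0 of 49 counts by over 1.5 times.

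The replicate numbers were not taken as pairing, since 51 of 105 same-numbered pairs, not all, had deviations correlating over 0.1. These ran from -0.371 to 0.722, with a median of 0.083, against -0.063 for pairs of different numbers. The replicate block gave 2 members lower in gpx2 at 6 min, 1 higher in yap1 at 3 min and 14 at 6 min. Under the block the differences at 20 min were 5 in gpx1, 4 in gpx2 and 5 in grx1, with 17 in yap1 at 6 min. It also gave 2 falls from 12 to 20 min in wild type and 4 members higher at 12 min in the yap1 CHP arm.

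With 1 culture left out at a time, members lower at 6 min ranged from 2 to 11 in wild type, 2 to 9 in glr1, 0 to 1 in gpx2 and 4 to 23 in grx2, and from 0 to 3 in grx2 at 3 min. In yap1, members higher ranged from 0 to 1 at 3 min, 3 to 10 at 6 min and 2 to 5 at 20 min, and members lower from 6 to 11 at 20 min. Differences at 20 min ranged from 0 to 14 in glr1, 0 to 6 in gpx1, 0 to 5 in gpx2 and 0 to 6 in grx1, and from 7 to 13 in yap1 at 6 min. At 0 min they ranged from 4 to 18 in grx1, 21 to 41 in grx2, 10 to 20 in gpx1, 0 to 5 in gpx2 and 2 to 15 in yap1. Falls from 12 to 20 min ranged from 0 to 1 in wild type and 7 to 16 in grx1. Members whose change was lower than in wild type ranged from 5 to 20 in grx2 and 3 to 5 in yap1. Within arms, the range was 0 to 33 in glr1 Control at 20 min, 0 to 2 in yap1 CHP at 12 min and 12 to 21 in yap1 CHP at 20 min. The search for promoter motifs was not run, since no promoter sequences were used here.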
